A study of Caenorhabditis elegans with 16 samples.

Results

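Lysozymes, saposin-like proteins and small secreted peptides form much of the antimicrobial repertoire of *C. elegans*. Their genes were taken from the count table by name, as every row called *lys*, *ilys*, *spp*, *abf*, *cnc*, *fip* or *fipr* followed by a number. This gave 92 of the 42048 genes of the table, of which 50 had enough counts to be tested. The 92 genes comprised 10 *lys*, 6 *ilys*, 23 *spp*, 6 *abf*, 11 *cnc*, 7 *fip* and 29 *fipr* genes, and 8, 3, 15, 3, 7, 3 and 11 of them, in the same order, passed the filter on low counts. The remaining 42 are accounted for below by their counts alone.

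The worms were N2, the wild-type strain, and *syp-2::AID*, in which SYP-2, a protein of the synaptonemal complex, carries an auxin-inducible degron. In the presence of auxin the degron is bound by TIR1, an F-box protein taken from plants, and the tagged protein is degraded. Each strain was kept for 4 h on plates seeded with OP50 bacteria, either with 4 mM auxin or without auxin, as adults at 18 to 24 h after the L4 stage. This gave 4 groups of 4 biological replicates, each library a pool of 50 whole worms. The degron strain expresses TIR1 from the *sun-1* promoter, which is active in the germline, whereas N2 worms carry neither TIR1 nor a tagged protein. Auxin in N2 worms thus compares the plates with SYP-2 in place. Whether the plates without auxin held its solvent is not stated, so an effect of auxin below is an effect of the auxin plates.

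Lysozymes cleave the peptidoglycan of bacterial walls. The *lys* genes of the worm encode lysozymes of a kind shared with protists and the *ilys* genes those of the invertebrate type. Saposin-like *spp* genes include the caenopores, which form pores in bacterial membranes in the gut. The *abf* genes encode defensin-like antibacterial factors. Caenacins (*cnc*), fungus-induced proteins (*fip*) and the related *fipr* products are short secreted peptides, and *cnc-2* is known as an epidermal gene that responds to fungal infection through the TGF-β ligand DBL-1. In this organism the intestine and the epidermis are the main sites of such immune genes. RNA came from whole worms, so fewer cells of a type and less RNA per cell cannot be told apart.

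Total counts per library ranged from 13964761 to 18741524. Of the degron strain, treated replicates 3 and 4 differed from the other 14 libraries. The share of counts from ribosomal protein genes was 18.7% and 18.8% in this pair and 11.3% to 15.2% elsewhere. Their deviations from the mean of all libraries ran against exon length across genes, with Spearman's rho of -0.55 and -0.63, whereas the other 14 libraries had values from 0.05 to 0.28. The immune genes are short, with 35 of the 50 tested at no more than 600 exon bases (median 466.5, in the WBcel235 annotation), and their median deviation was 0.63 and 0.87 on the log2 scale in these libraries, against -0.34 to 0.24 in the rest. All tested genes of up to 600 exon bases deviated by a median of 0.53 and 0.68 there and by -0.15 to 0.01 elsewhere. Calls of immune genes with auxin in *syp-2::AID* worms are therefore also given without them.

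**Figure D1:**
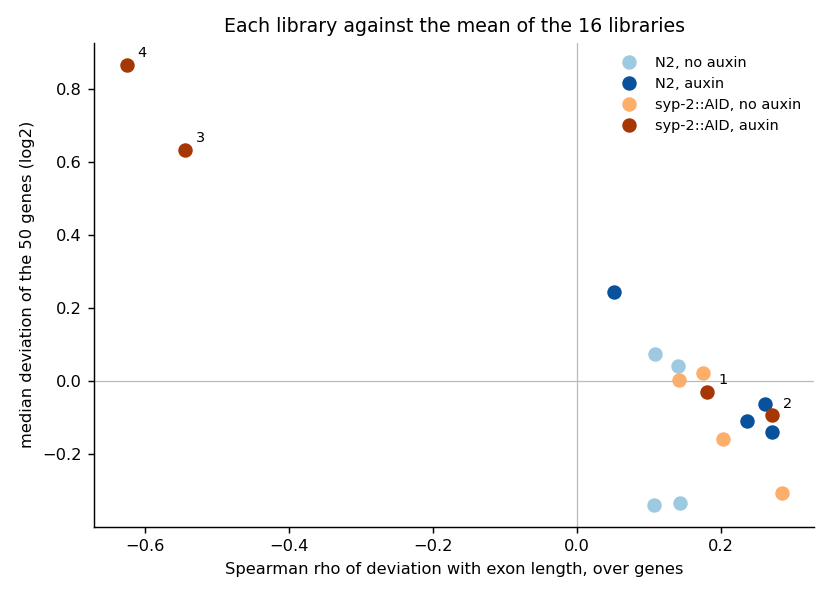
Each point is 1 of the 16 libraries. The x axis gives Spearman's rho, across genes, between exon length and a gene's log2 deviation from its mean over all libraries, and the y axis the median of that deviation over the 50 tested immune genes. Treated replicates 3 and 4 of the degron strain (numbered) lie at rho of -0.55 and -0.63 with medians of 0.63 and 0.87, away from the other 14 libraries.

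Levels were compared between genes per length, as CPM (counts relative to the library total, as scaled by the TMM method) per kilobase of exon. The means over the 16 libraries spanned 1.48 for *ilys-2* to 1589 for *spp-17*. The top of this order was held by saposin-like genes. In untreated N2 worms *spp-17* had 1470 ± 112 CPM per kb (SD, n = 4), *spp-14* had 1248 ± 126 and *spp-5*, a caenopore gene known to act on ingested *E. coli*, had 910 ± 71.9. The next genes by the mean over all libraries were *ilys-5* at 330 ± 67.1 CPM per kb (SD, n = 16), *spp-3* at 324 ± 70.4 and *lys-4* at 259 ± 77.4, which did not differ beyond their spread. The highest genes of the remaining families were *fipr-21* at 203 ± 67.0, *cnc-4* at 67.7 ± 37.7, *fip-2* at 50.8 ± 16.5 and *abf-5* at 4.68 ± 2.26 CPM per kb. The group means of the 3 tested defensin-like *abf* genes lay between 1.60 and 6.91 CPM per kb.

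**Figure D2:**
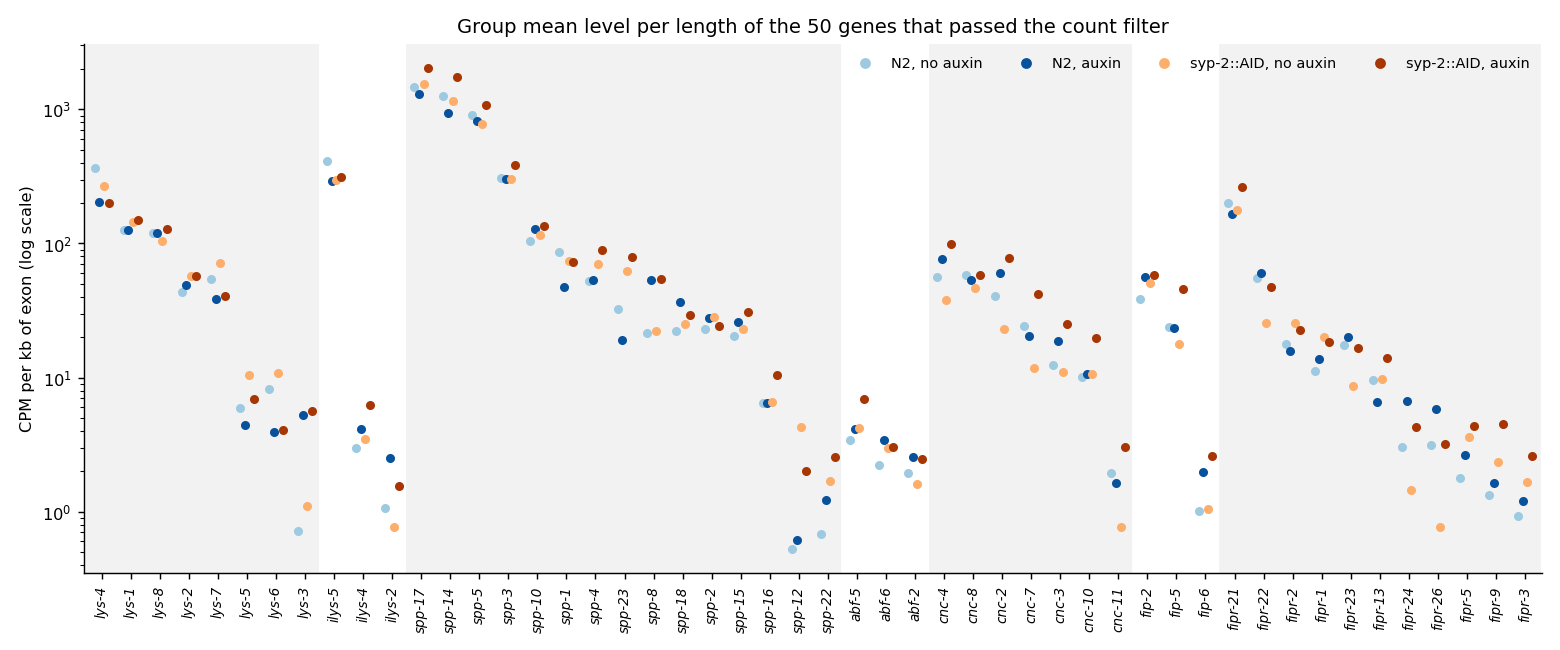
Mean level per length of the 50 tested genes in each of the 4 groups (points, n = 4 libraries each), in CPM per kb of exon on a log scale, ordered within families. Saposin-like *spp-17*, *spp-14* and *spp-5* lie highest and *abf* genes low, and the means over all libraries span from 1.48 to 1589 CPM per kb.

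Of the 42 genes below the filter, 9 had no count in any library, namely *ilys-1*, *fip-3*, *fip-7* and 6 *fipr* genes. The other 33 had between 1 and 93 counts over all 16 libraries, with a median of 8. *spp-20* had the most. It had 0 or 1 count in each of the 8 untreated libraries. With auxin it had 4, 17, 2 and 18 counts in N2 worms and 1, 7, 41 and 0 counts in *syp-2::AID* worms. This gene was not tested in the main fit, and it was picked out here after its values were seen. An alternative fit with no filter beyond 1 count also tested it, and its values there are not given. Where libraries were left out, it passed the filter in some fits, and only through its treated libraries. Among these fits, it was called with auxin in N2 worms only without both treated replicates 3 and 4 of the degron strain (adjusted p = 0.0117, edgeR). In *syp-2::AID* worms it was called without treated replicate 1, 2 or 4 (0.0201 to 0.0316). The other fits with libraries left out that tested it gave adjusted p-values of 0.0676 to 0.261 in N2 and 0.0672 to 0.429 in *syp-2::AID* worms. Calls of a gene picked and filtered in this way add no support for a rise.

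Differences were tested in edgeR by a quasi-likelihood model of the 16 libraries and 11776 genes, with Benjamini-Hochberg adjustment over these genes. The words rose and fell are used below for an adjusted p under 0.05. Auxin in N2 worms raised 3 of the 50 immune genes (6%) and lowered 4 (8%), where 3.99% of all genes rose and 1.44% fell. Auxin in *syp-2::AID* worms raised 8 (16%) and lowered 1 (2%), against 5.27% and 1.93% of all genes. The median log2 fold change of the 50 genes was 0.18 in N2 worms and 0.50 in *syp-2::AID* worms, where that of all genes was 0.01 and 0.03. Tested genes of 250 to 600 exon bases, most of them not immune genes, had a median of -0.01 in N2 and 0.37 in *syp-2::AID* worms, and 8.18% of them rose in the latter. Without treated replicates 3 and 4 of the degron strain, auxin raised 1 and lowered 3 of 51 immune genes in that strain, with a median of 0.01, while 3.64% of all genes changed in either direction.

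**Figure D3:**
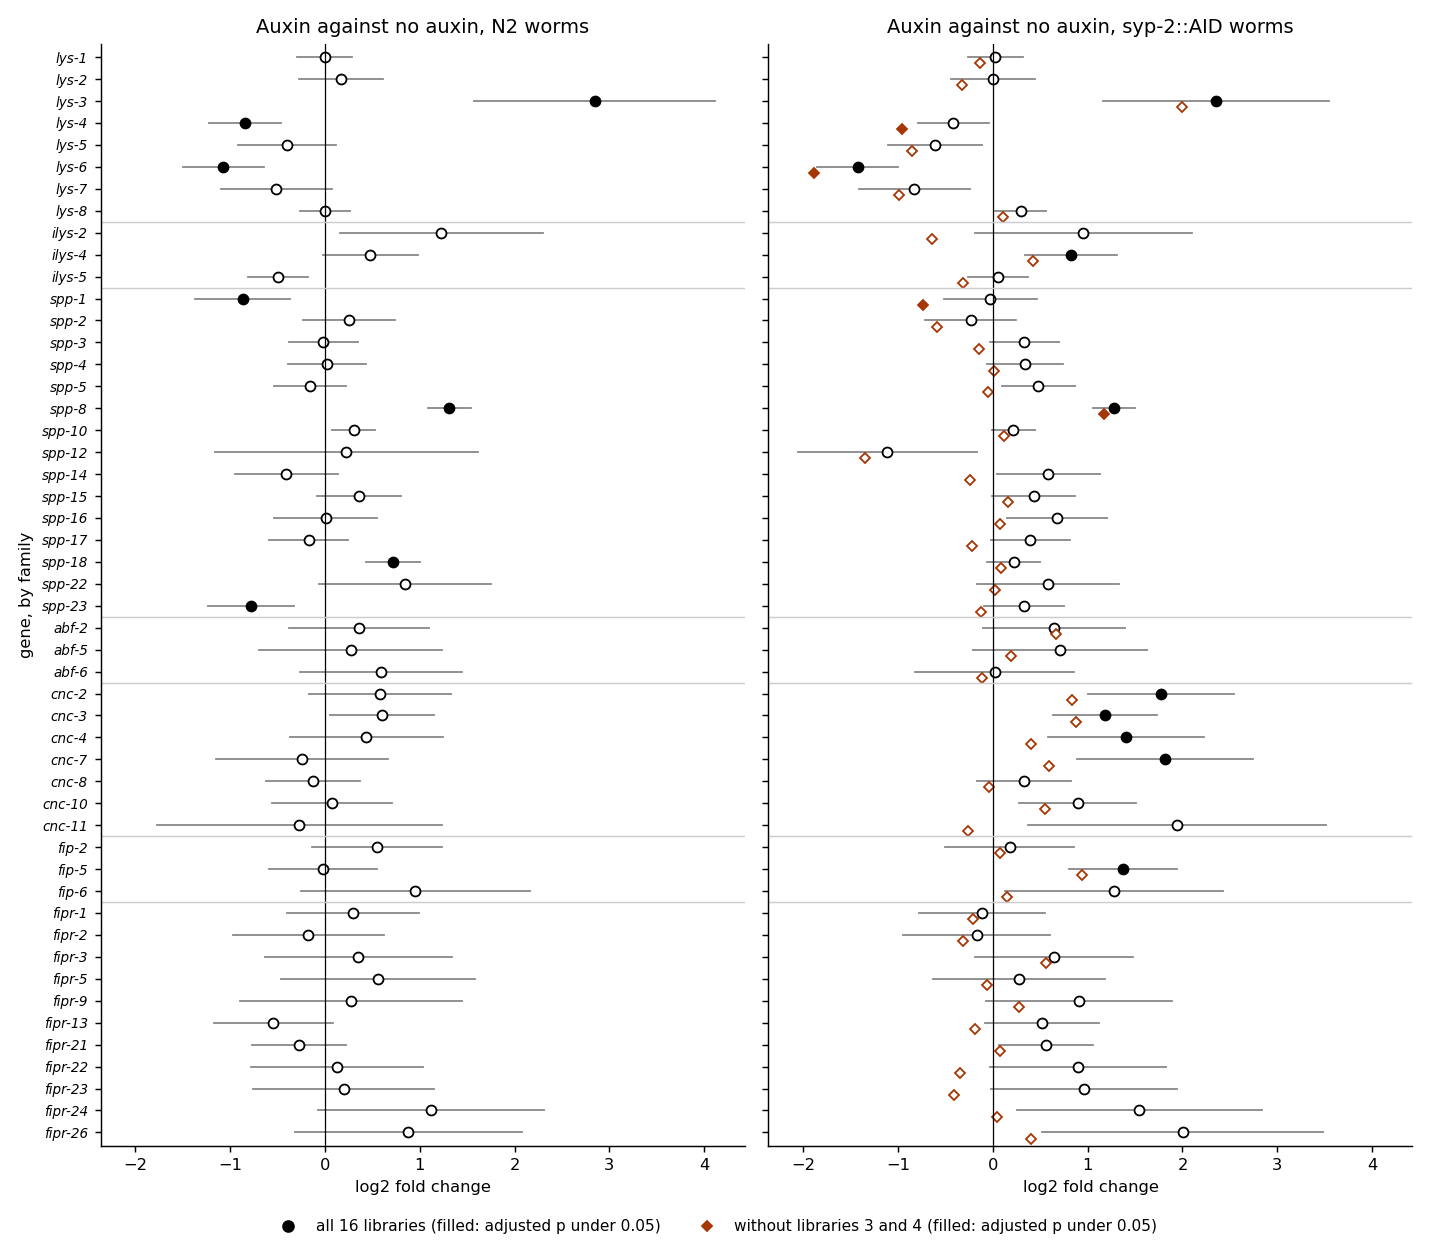
Log2 fold change with auxin of each of the 50 tested genes in N2 (left) and *syp-2::AID* worms (right), by family. Circles and bars give edgeR's estimate and its 95% confidence interval from all 16 libraries, and diamonds (right only) the estimate without treated replicates 3 and 4 of the degron strain; filled symbols have an adjusted p under 0.05. *spp-8* and *lys-6* have filled circles in both strains and filled diamonds, whereas the filled circles of the *cnc* genes and *fip-5* have open diamonds nearer to 0.

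A saposin-like gene, *spp-8*, had the smallest adjusted p of the 50 genes in both auxin comparisons. In N2 worms it had 33.5, 26.1, 26.5 and 25.8 CPM without auxin and 75.2, 65.0, 66.9 and 71.0 CPM with it. The *syp-2::AID* libraries had 28, 26.6, 30.2 and 31.7 CPM without and 68.7, 62.2, 69.8 and 81.7 CPM with auxin. Treated and untreated libraries did not overlap in either strain, and replicates 3 and 4 lay close to the other treated ones. *spp-8* rose 2.49-fold in N2 (log2 1.31, standard error 0.11, adjusted p = 4.36e-07, edgeR) and 2.42-fold in *syp-2::AID* worms (log2 1.28, standard error 0.10, adjusted p = 4.71e-07). The difference between these responses was -0.04 on the log2 scale, with a 95% interval from -0.35 to 0.27. The rise kept its call in all 28 alternative fits, at log2 values from 1.27 to 1.46 in N2 and from 1.17 to 1.33 in *syp-2::AID* worms. At 1298 exon bases, *spp-8* is among the longer genes of the 50.

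**Figure D4:**
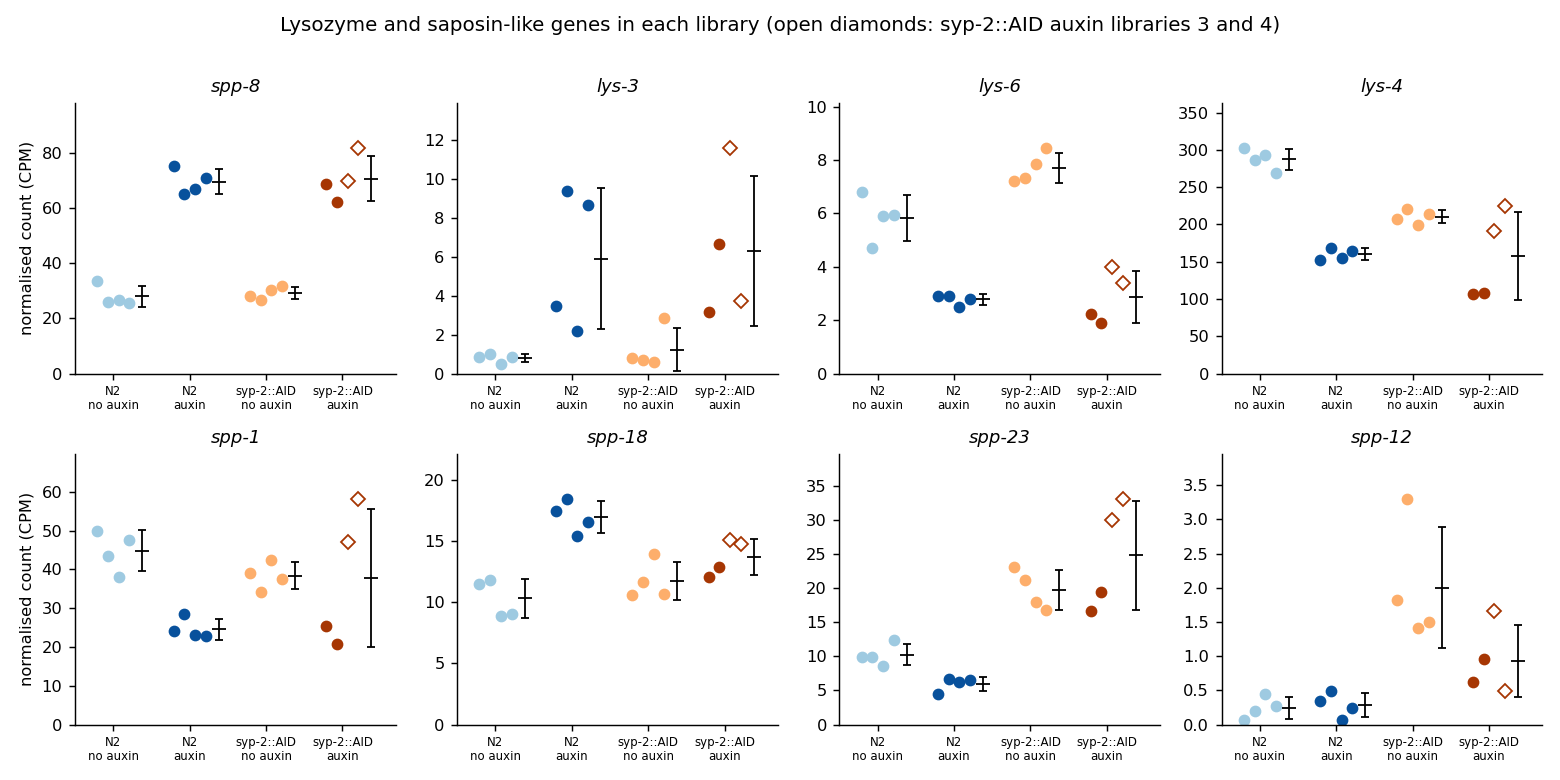
Normalised counts (CPM, linear axes from 0) of 8 lysozyme and saposin-like genes in each of the 16 libraries, with the group mean and SD (bars, n = 4); open diamonds mark treated replicates 3 and 4 of the degron strain. *spp-8* lies at 62.2 to 81.7 CPM in all treated libraries and at 25.8 to 33.5 CPM in all untreated ones, whereas *lys-4* and *spp-1* are split among the treated *syp-2::AID* libraries.

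Among the lysozymes, *lys-6* fell and *lys-3* rose in both strains. *lys-6* had 6.80, 4.71, 5.91 and 5.95 CPM in untreated and 2.90, 2.91, 2.49 and 2.80 CPM in treated N2 worms. It had 7.21, 7.32, 7.84 and 8.44 CPM in untreated and 2.23, 1.91, 3.99 and 3.41 CPM in treated *syp-2::AID* worms. The groups did not overlap, and the fall was 2.101-fold in N2 (log2 -1.07, standard error 0.20, adjusted p = 0.00374, edgeR) and 2.68-fold in *syp-2::AID* worms (log2 -1.42, standard error 0.20, adjusted p = 0.000176). Both calls held in all 28 alternative fits.

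*lys-3* was low without auxin, at 0.52 to 1.01 CPM in N2 worms (7 to 15 counts) and, in *syp-2::AID* worms, at 0.79, 0.68, 0.59 and 2.87 CPM. With auxin it had 3.47, 9.38, 2.18 and 8.65 CPM in N2 and 3.15, 6.67, 11.6 and 3.75 CPM in *syp-2::AID* worms. The treated libraries thus differed several-fold among themselves, but none reached down to the untreated ones of its strain. The rise was 7.18-fold in N2 (log2 2.84, standard error 0.60, adjusted p = 0.00814, edgeR) and 5.11-fold in *syp-2::AID* worms (log2 2.35, standard error 0.57, adjusted p = 0.0170). For the degron strain the adjusted p was between 0.0630 and 0.0743 without treated replicate 3 or without untreated replicate 1, 2 or 3, and 0.162 without both treated replicates 3 and 4.

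*lys-4* was, per length, the highest of the *lys* genes. In N2 worms it had 302, 286, 293 and 269 CPM without auxin and 152, 169, 155 and 164 CPM with it, a fall of 1.80-fold (log2 -0.84, standard error 0.18, adjusted p = 0.00801, edgeR) that held in all 28 alternative fits. The untreated *syp-2::AID* libraries had 207, 220, 200 and 215 CPM and the treated ones 107, 109, 191 and 224 CPM. Treated replicates 1 and 2 were thus far below every untreated library, while replicates 3 and 4 were at the untreated level. Over all 4 treated libraries the log2 fold change was -0.42 (adjusted p = 0.137). Without replicates 3 and 4 it was -0.96 (standard error 0.07, adjusted p = 1.11e-07). That small standard error rests on treated replicates 1 and 2 and on a spread estimated without the libraries left out. The difference between the strains' responses had an adjusted p of 0.374, and of 0.782 without these libraries.

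*lys-4*, *lys-5* and *lys-6* lie next to each other in the WBcel235 annotation, as do *lys-1*, *lys-2* and *lys-3*. *lys-5* did not pass the test in either strain with all libraries, with log2 fold changes of -0.40 in N2 and -0.61 in *syp-2::AID* worms (adjusted p = 0.407 and 0.110, edgeR). In *syp-2::AID* worms its fall was called by DESeq2 (adjusted p = 0.0481). edgeR called it without treated replicate 4 of that strain (0.0310) and with the trend over exon length removed from each library (0.00994). *lys-1*, a gene known to respond to *Serratia*, had log2 fold changes of 0.00 and 0.03, and *lys-2* of 0.17 and 0.00. *lys-7*, a known target of the forkhead factor DAF-16, had a log2 fold change of -0.51 in N2 (adjusted p = 0.337) and of -0.83 in *syp-2::AID* worms (adjusted p = 0.0754). In the latter it was called by DESeq2 (0.0197). edgeR called it there with that trend removed (0.0270) and without untreated N2 replicate 2 (0.0435). *lys-8*, whose exons overlap a gene on the other strand, had 0.00 and 0.29. In all, 1 of 8 tested *lys* genes rose and 2 fell in N2 worms, where 3.99% of all genes rose and 1.44% fell. In *syp-2::AID* worms 1 rose and 1 fell, against 5.27% and 1.93% of all genes. By edgeR with all libraries, the *lys* genes with no call thus include the neighbours of those that changed.

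Of the 3 tested invertebrate-type lysozymes, *ilys-4* rose in *syp-2::AID* worms. It had 2.48, 2.35, 3.08 and 3.11 CPM without auxin and 3.55, 3.88, 6.16 and 6.05 CPM with it, so that the groups did not overlap but replicates 3 and 4 were the highest. Its rise (log2 0.83, standard error 0.23) had an adjusted p of 0.0363 in edgeR. It was 0.43 without replicates 3 and 4 (adjusted p = 0.580), and the adjusted p was between 0.0537 and 0.138 without replicate 3 or 4 alone or without any single untreated *syp-2::AID* library. In N2 worms its log2 fold change was 0.48 (adjusted p = 0.292). *ilys-5*, the highest of these genes per length, had 521, 507, 514 and 586 CPM in untreated and 333, 434, 389 and 354 CPM in treated N2 worms. These groups did not overlap, but the log2 fold change of -0.49 (standard error 0.15) missed the threshold (adjusted p = 0.0652), and it had an adjusted p under 0.05 in 10 of 28 alternative fits, among them those without replicate 2 of treated N2 worms or without replicate 1, 2 or 4 of treated *syp-2::AID* worms (4 of the 16 fits that left out a library, with a lowest value of 0.0288). In *syp-2::AID* worms it had 423, 377, 392 and 344 CPM without and 313, 303, 472 and 510 CPM with auxin. Here too replicates 3 and 4 lay above, and replicates 1 and 2 below, the untreated libraries.

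Among the 15 tested saposin-like genes, 2 rose and 2 fell with auxin in N2 worms, against 3.99% and 1.44% of all genes. *spp-8* alone passed the test in *syp-2::AID* worms, where 5.27% of all genes rose. *spp-18* had 11.5, 11.8, 8.87 and 9.02 CPM in untreated and 17.4, 18.4, 15.4 and 16.6 CPM in treated N2 worms, with no overlap. It rose 1.64-fold (log2 0.72, standard error 0.13, adjusted p = 0.00337, edgeR), and the call held in all 28 alternative fits. The *syp-2::AID* libraries had 10.6 to 14.0 CPM without and 12.02 to 15.1 CPM with auxin, which overlap (log2 0.22, adjusted p = 0.261). The difference of -0.50 between the responses did not pass the test (adjusted p = 0.225).

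*spp-1*, a caenopore gene expressed in the intestine, had 50.004, 43.5, 38.1 and 47.7 CPM in untreated and 24.0, 28.5, 23.01 and 22.7 CPM in treated N2 worms. The degron strain had 39.1, 34.3, 42.6 and 37.5 CPM without auxin and 25.3, 20.7, 47.0 and 58.1 CPM with it. Treated replicates 1 and 2 lay below and replicates 3 and 4 above every untreated library of that strain. The fall in N2 was 1.83-fold (log2 -0.87, standard error 0.24, adjusted p = 0.0408, edgeR). It was lost in 11 of the 16 fits that left out a library (adjusted p of 0.0509 to 0.110), those without any single untreated library of either strain or without replicate 1, 3 or 4 of treated N2 worms. Auxin in *syp-2::AID* worms gave a log2 fold change of -0.02 with all libraries (adjusted p = 0.952) and -0.74 without replicates 3 and 4 (standard error 0.13, adjusted p = 0.00161). Exons of *spp-1* overlap T07C4.3 on the other strand, and the strand setting of the counting is not given in the sources used here.

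The 3 saposin-like genes of highest level did not pass the test in either strain with all libraries. *spp-17* had 441 to 534 CPM in treated and 495 to 590 CPM in untreated N2 worms. In *syp-2::AID* worms it had 614, 544, 545 and 555 CPM without and 489, 482, 978 and 1019 CPM with auxin. *spp-14*, which lies next to the yolk protein gene *vit-1*, had 315, 392, 331 and 302 CPM in treated and 478, 418, 395 and 486 CPM in untreated N2 worms. These groups did not overlap (log2 -0.41, adjusted p = 0.427, edgeR). The fall passed the test in 2 of 28 alternative fits, with 8 libraries alone (0.0203) and without treated *syp-2::AID* replicates 3 and 4 (0.00701). In *syp-2::AID* worms *spp-14* had 442, 364, 437 and 410 CPM without and 364, 333, 773 and 1011 CPM with auxin. *spp-5* had 303, 277, 281 and 288 CPM without and 286, 268, 482 and 567 CPM with auxin. In each of these genes replicates 3 and 4 stood above all untreated libraries, and the log2 fold changes of 0.39, 0.59 and 0.48 became -0.22, -0.24 and -0.05 without them. *spp-10*, whose product is a homolog of mammalian prosaposin and which lies on the other side of *hlh-12* from *spp-8*, had log2 fold changes of 0.30 in N2 (adjusted p = 0.124) and 0.22 in *syp-2::AID* worms (adjusted p = 0.180).

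Of 7 tested caenacin genes 4 rose in *syp-2::AID* worms, where 5.27% of all genes and 8.18% of those of 250 to 600 exon bases did. All 7 had positive fold changes, with a median of 1.40 on the log2 scale. None passed edgeR's test in N2 worms with all libraries, where the median was 0.07. There 1 had an unadjusted p under 0.05, against 18.5% of all genes. Between the untreated strains 6 of the 7 were lower in *syp-2::AID* worms, with a median log2 of -0.60, though none passed the test. *cnc-2* had 8.12, 4.24, 9.36 and 10.8 CPM in untreated and 15.1, 13.7, 38.8 and 43.4 CPM in treated *syp-2::AID* worms. The groups did not overlap, and replicates 3 and 4 had the highest values of all 16 libraries. It rose 3.41-fold (log2 1.77, standard error 0.36, adjusted p = 0.00518, edgeR). *cnc-3*, its neighbour in the annotation, had 5.21, 3.71, 5.79 and 4.73 CPM without and 8.87, 8.96, 10.9 and 15.6 CPM with auxin. This was a rise of 2.27-fold (log2 1.18, standard error 0.26, adjusted p = 0.00857), with no overlap.

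*cnc-4*, next in the same cluster, had 18.8, 7.17, 18.7 and 20.7 CPM without and 22.95, 20.2, 62.3 and 67.8 CPM with auxin. Treated replicate 2 lay within the untreated range. The mean of the treated libraries was higher (log2 1.40, standard error 0.39, adjusted p = 0.0369, edgeR). *cnc-7*, at another place in the genome, had 4.24, 2.09, 2.92 and 3.89 CPM without and 5.55, 4.32, 19.6 and 16.9 CPM with auxin. It rose too (log2 1.81, standard error 0.44, adjusted p = 0.0176), and replicates 1 and 2 lay just above the highest untreated library. Both calls depended on single libraries. That of *cnc-4* was lost without replicate 1 or 3 of treated N2 worms, without replicate 3 or 4 of treated *syp-2::AID* worms or without any untreated *syp-2::AID* library (adjusted p of 0.0502 to 0.165). That of *cnc-7* was lost without replicate 3 or 4 of treated or replicate 2 or 3 of untreated *syp-2::AID* worms (0.0599 to 0.0768).

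**Figure D5:**
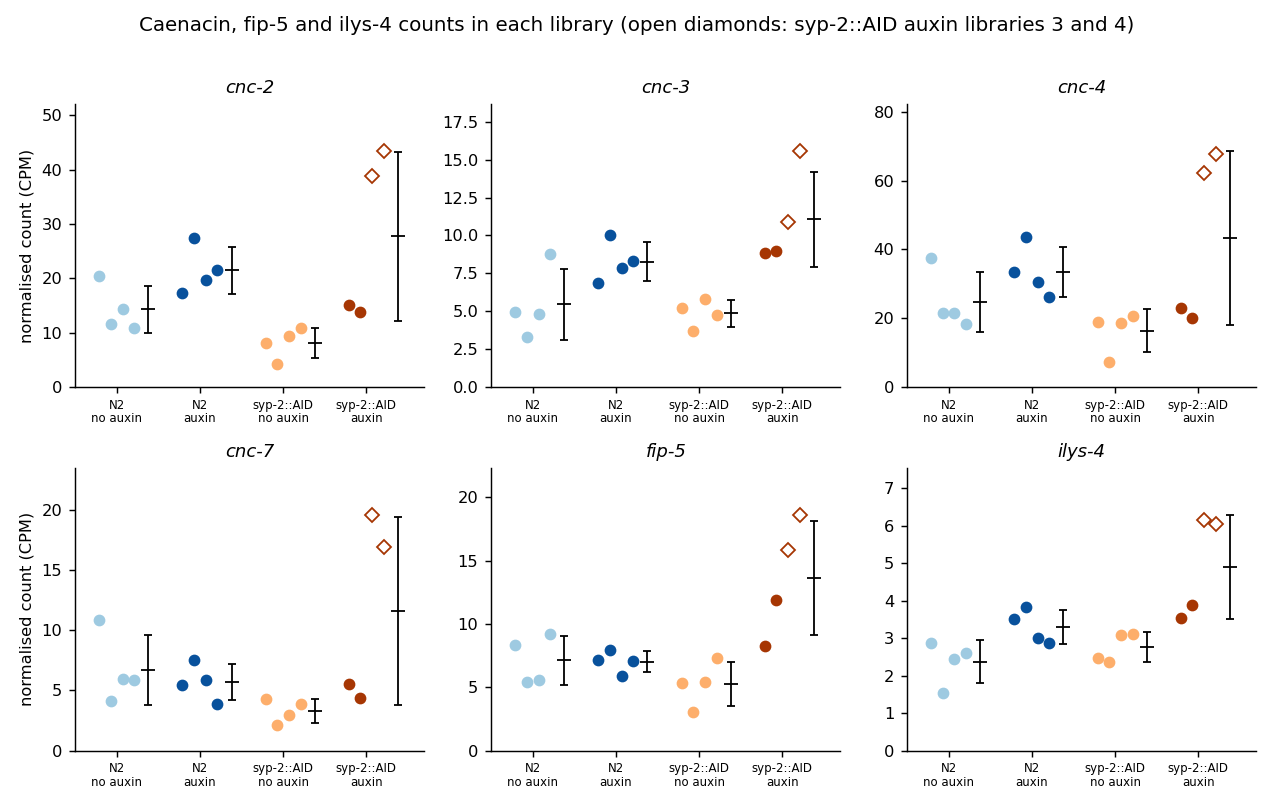
Normalised counts (CPM, linear axes from 0) of *cnc-2*, *cnc-3*, *cnc-4*, *cnc-7*, *fip-5* and *ilys-4*, the genes called in *syp-2::AID* but not in N2 worms, in each of the 16 libraries, with the group mean and SD (bars, n = 4). Treated replicates 3 and 4 of the degron strain (open diamonds) are the highest libraries in each panel; for *cnc-2*, replicates 1 and 2 are at 15.1 and 13.7 CPM and replicates 3 and 4 at 38.8 and 43.4 CPM.

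Without replicates 3 and 4 of treated *syp-2::AID* worms none of the caenacins passed edgeR's test in that strain, and 2 of 7 had an unadjusted p under 0.05. The share of all genes with such a p was 30% with all libraries and is not given for this fit. The log2 fold changes of *cnc-2*, *cnc-3*, *cnc-4* and *cnc-7* were then 0.83, 0.88, 0.40 and 0.59, and their adjusted p-values were 0.266, 0.104, 0.831 and 0.626. With the trend over exon length removed from each library, *cnc-2* (log2 1.30, adjusted p = 0.00341), *cnc-3* (0.83, 0.0176) and *cnc-7* (1.30, 0.0183) passed the test. In N2 worms *cnc-2* had 10.9 to 20.4 CPM without and 17.3 to 27.4 CPM with auxin, a log2 fold change of 0.58 (adjusted p = 0.406). *cnc-3* had 0.60 (adjusted p = 0.224) and *cnc-4* 0.44 (adjusted p = 0.589), while *cnc-7* had -0.24 (adjusted p = 0.831). In 1 of 28 alternative fits, without untreated N2 replicate 4, *cnc-3* passed edgeR's test in N2 worms (log2 0.92, adjusted p = 0.0295). The difference between strains was not significant for any of them (adjusted p of 0.221 to 0.398).

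Among the fungus-induced peptides, *fip-5* rose in *syp-2::AID* worms. It had 5.33, 3.09, 5.41 and 7.31 CPM without and 8.30, 11.9, 15.8 and 18.6 CPM with auxin, so that every treated library lay above every untreated one. The rise was 2.58-fold (log2 1.37, standard error 0.27, adjusted p = 0.00374, edgeR), and it was 0.94 on the log2 scale without replicates 3 and 4 (adjusted p = 0.0776). In N2 worms it had 8.30, 5.45, 5.54 and 9.22 CPM without and 7.16, 7.96, 5.92 and 7.07 CPM with auxin (log2 -0.02, adjusted p = 0.978). *fip-5* lies between *npr-6* and *fipr-21*, and *fipr-21* is followed by *cnc-8*. These neighbours did not pass the test in *syp-2::AID* worms, with log2 fold changes of 0.56 for *fipr-21* (adjusted p = 0.130) and 0.33 for *cnc-8* (adjusted p = 0.329).

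No *fipr* gene passed edgeR's test in any comparison. Of the 11 tested, 3 had an unadjusted p under 0.05 with auxin in *syp-2::AID* worms and none in N2 worms, where 30% and 18.5% of all genes had, and DESeq2 called 1 and 0. *fipr-22* had 61.3, 33.96, 38.9 and 24.6 CPM in untreated N2 worms and 20.1, 8.16, 20.6 and 24.3 CPM in untreated *syp-2::AID* worms. With auxin it had 53.2, 49.9, 41.1 and 29.7 CPM in N2 and 14.8, 13.7, 47.3 and 60.4 CPM in *syp-2::AID* worms. By a small margin the untreated strains did not overlap, at a log2 difference of -1.12 for *syp-2::AID* against N2 (adjusted p = 0.203 by edgeR's quasi-likelihood model). *fipr-26* had the lowest unadjusted p of its family, with 0.27 to 2.03 CPM in untreated N2 and 0.11 to 0.32 CPM in untreated *syp-2::AID* worms (log2 -2.02, adjusted p = 0.153). Reads of such short, related genes can be shared between copies, and no sequence was compared here, so values of single *fipr* genes are uncertain. The 3 tested *abf* genes also had no call by edgeR, DESeq2 or limma-voom in any comparison, nor an unadjusted p under 0.05. *abf-6* had 0.807 to 3.41 CPM over all libraries. *abf-5* had 1.08 to 2.20 CPM in untreated and 0.37 to 3.34 CPM in treated N2 worms, and 1.57 to 2.60 and 2.06 to 4.73 CPM in *syp-2::AID* worms.

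Between the strains, *spp-23* was higher in *syp-2::AID* worms with and without auxin. The untreated libraries had 23.03, 21.2, 18.0 and 16.8 CPM in *syp-2::AID* and 9.94, 9.95, 8.65 and 12.4 CPM in N2 worms. With auxin they had 16.7, 19.4, 30.01 and 33.02 CPM in *syp-2::AID* and 4.49, 6.75, 6.17 and 6.52 CPM in N2 worms. No library of N2 reached the lowest of *syp-2::AID*. The gene was 1.93-fold higher without auxin (log2 0.95, standard error 0.21, adjusted p = 0.0398, edgeR) and 4.14-fold higher with it (log2 2.05, standard error 0.21, adjusted p = 0.000220). The second difference held in all 27 alternative fits, with 1.60 on the log2 scale without replicates 3 and 4 (adjusted p = 0.000583). The call without auxin was lost in 9 of the 16 fits that left out a library (adjusted p of 0.0564 to 0.135), those without replicate 1, 2 or 3 of untreated N2, replicate 3 or 4 of treated N2 or any untreated *syp-2::AID* library.

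Auxin lowered *spp-23* in N2 worms 1.72-fold (log2 -0.78, standard error 0.21, adjusted p = 0.0430, edgeR), with no overlap. This call was lost in 10 of the 16 fits that left out a library (adjusted p of 0.0512 to 0.156), those without any single N2 library or without replicate 2 or 3 of untreated *syp-2::AID* worms. In *syp-2::AID* worms the log2 fold change was 0.33 (adjusted p = 0.263). The difference between the responses was 1.10 on the log2 scale, with a 95% interval from 0.49 to 1.72. It did not pass edgeR's test (adjusted p = 0.181), while DESeq2 gave 0.0387 and limma-voom 0.275. *spp-17*, its neighbour in the annotation, had a log2 difference between the untreated strains of 0.07 (adjusted p = 0.879).

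*spp-12*, a caenopore gene known for expression in pharyngeal neurons, was near the floor in N2 worms. It had 1, 3, 6 and 4 counts (0.07 to 0.44 CPM) in untreated N2 worms, against 30, 63, 26 and 25 counts (1.41 to 3.30 CPM) in untreated *syp-2::AID* worms. The groups did not overlap, and the gene was 8.13-fold higher in the degron strain (log2 3.02, standard error 0.54, 95% interval 1.89 to 4.16, adjusted p = 0.0130, edgeR). Every N2 library had fewer than 10 counts, so *spp-12* passed the filter only through *syp-2::AID* libraries. Its test against N2 draws on the group that let it pass and is given as description only. This call of *spp-12* was lost without replicate 1 or 2 of untreated N2 worms (adjusted p of 0.0627 and 0.0733). With auxin it had 0.06 to 0.50 CPM in N2 and 0.49 to 1.67 CPM in *syp-2::AID* worms, which overlap slightly (log2 1.69, adjusted p = 0.0960).

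In total, 2 of the 50 genes, *spp-23* and *spp-12*, were higher and none lower by edgeR in untreated *syp-2::AID* than in untreated N2 worms. Of these, *spp-12* had passed the filter only through *syp-2::AID* libraries. Of all genes, 0.679% were higher and 0.195% lower. An unadjusted p under 0.05 was found for 14 of the 50 (28%), against 17.6% of all genes. With auxin 1 was higher and none lower, where 0.671% and 0.382% of all genes were, and 19 (38%) had an unadjusted p under 0.05, against 27.4% of all genes. The comparisons between strains and those with auxin share libraries. *lys-4* and *ilys-5* were lower in untreated *syp-2::AID* worms, with 200 to 220 against 269 to 302 CPM for *lys-4* and 344 to 423 against 507 to 586 CPM for *ilys-5*. Neither passed the test (log2 -0.45 and -0.47, adjusted p = 0.206 and 0.123, edgeR), although their groups did not overlap. *lys-5* was at 5.76 to 9.58 CPM in untreated *syp-2::AID* and at 2.81 to 4.68 CPM in untreated N2 worms, again with no overlap (log2 0.84, adjusted p = 0.0908).

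Groups that do not overlap were found for 11 of the 50 genes with auxin in N2 worms, 5 of them higher, where 17.2% of all tested genes had such groups. There were 9 in *syp-2::AID* worms, of which 8 were higher, with 13% of all genes. For the strains it was 9 without and 7 with auxin, with 13.6% and 11.6% of all genes. An exact two-sided permutation test on 4 against 4 libraries cannot give a p below 0.0286, the value of each gene without overlap. The difference between the strains' responses to auxin was significant for none of the 50 genes by edgeR or limma-voom and for *fip-5* and *spp-23* by DESeq2. At an unadjusted p under 0.05, 12 of the 50 (24%) differed by edgeR, against 17.6% of all genes, and 0.017% of all genes passed its adjusted test.

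Other immune genes were examined by list. Epidermal antimicrobial peptide genes of the *nlp-29* group are induced by wounding and fungal infection. Of 10 tested, 7 rose in *syp-2::AID* and 1 in N2 worms, where 5.27% and 3.99% of all genes rose. Without treated replicates 3 and 4 of the degron strain, 2 of the 10 rose in that strain. *nlp-29* rose (log2 1.66, standard error 0.28, adjusted p = 0.00117, edgeR) in *syp-2::AID* worms, and its log2 fold change was 0.45 (adjusted p = 0.418) in N2 worms. *nlp-34* had 3.28 (adjusted p = 0.000612) and 0.64 (adjusted p = 0.524). *nlp-25* rose in both strains, by 3.21 (adjusted p = 6.65e-05) and 2.35 (adjusted p = 0.00205) on the log2 scale. Without replicates 3 and 4, *nlp-25* (log2 2.05, adjusted p = 8.00e-05) and *nlp-34* (2.03, 0.0279) passed the test in *syp-2::AID* worms, and *nlp-29* was at 0.90 (adjusted p = 0.0504). The difference between strains was not significant for *nlp-29* (adjusted p = 0.221) or *nlp-34* (0.182).

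None of the 9 genes of the p38 MAP kinase pathway of innate immunity passed edgeR's test in either auxin comparison. At an unadjusted p under 0.05 there were 3 in N2 and 2 in *syp-2::AID* worms. Of all genes, 18.5% had such a p in N2 and 30% in *syp-2::AID* worms, which is also the background for the next list. The kinase gene *pmk-1* had log2 fold changes of 0.53 in N2 (adjusted p = 0.0636) and -0.11 in *syp-2::AID* worms (adjusted p = 0.628). Without treated replicates 3 and 4 of the degron strain, *pmk-1* (adjusted p = 0.0194) and the adaptor gene *tir-1* (log2 0.73, adjusted p = 0.00582) passed the test in N2 worms. Of 13 genes of epidermal immunity and the DBL-1 pathway none passed either, with 1 and 3 at an unadjusted p under 0.05, and the STAT gene *sta-2* had -0.14 and 0.22 (adjusted p = 0.853 and 0.619). Among 10 immune transcription factors *elt-7*, a GATA factor of the intestine, rose in *syp-2::AID* worms (log2 0.98, adjusted p = 0.0306), but not without treated replicates 3 and 4 (log2 0.57, adjusted p = 0.442), where it passed the test in N2 worms instead (log2 0.74, adjusted p = 0.0433). Other effectors, among them lysosomal proteases, fell in N2 worms in 5 of 17 cases and rose in none. Without treated replicates 3 and 4 of the degron strain 1 (*irg-1*) rose in N2 worms. With all libraries, 1.44% of all genes fell and 3.99% rose in N2 worms. The fit without that pair also called *pmk-1*, *tir-1* and *elt-7* in N2 worms, and it called more genes of 250 to 600 exon bases. Of these, 69 of 1114 rose and 118 fell in N2 worms, against 38 and 8 of 1063 with all libraries. The cathepsin B-like gene *cpr-4* fell in both strains, by 1.31 (adjusted p = 1.40e-06) and 0.66 (adjusted p = 0.00127) on the log2 scale. In *syp-2::AID* worms 3 of these 17 genes fell and 3 rose, where 1.93% and 5.27% of all genes did. Among those that rose was *cpr-1* (log2 0.62, adjusted p = 0.000246). Without replicates 3 and 4, 3 fell and 1, *cpr-1*, rose in that strain (log2 0.51, adjusted p = 0.00107).

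Summed levels of tissue markers, in which the most abundant markers weigh most, also differed between libraries. The summed level of the intestine markers was 3037 to 3756 CPM in treated and 3875 to 4349 CPM in untreated N2 worms, which do not overlap. Of 9 tested markers, 2 fell in N2 worms, where 1.44% of all genes did. These were *asp-1*, also among the other effectors, and the intestinal actin gene *act-5*. Yet 5 of the 9 had positive fold changes, and the median log2 was 0.01. Without treated replicates 3 and 4 of the degron strain, 3 fell and 2 rose in N2 worms. That fit also called more genes of 250 to 600 exon bases in N2 worms than the fit of all libraries. In *syp-2::AID* worms the sums were 3386 to 3759 CPM with and 3549 to 4167 CPM without auxin. There 1 of the 9 markers, *mtl-2*, rose, where 5.27% of all genes did. The epidermis markers summed to 8483 and 8518.9 CPM in treated *syp-2::AID* replicates 1 and 2 and to 11968 and 14357 CPM in replicates 3 and 4. The untreated libraries of that strain had 7855 to 9700 CPM. None of these 8 markers passed edgeR's test there. With auxin 4 of them had positive and 4 negative fold changes, with a median log2 of -0.13, so the sums do not describe the list as a whole. Body wall muscle markers summed to 1277 and 1328 CPM in treated *syp-2::AID* replicates 3 and 4, to 2674 and 2793 CPM in replicates 1 and 2 and to 2347 to 3146 CPM without auxin. Of these 4, *myo-3* fell, though not without replicates 3 and 4, where 1.93% of all genes fell with all libraries. Germline markers summed to 3154 and 2767 CPM in treated replicates 3 and 4, to 4248 and 4556 CPM in replicates 1 and 2 and to 4319 to 5061 CPM without auxin. None of these 7 passed the test in edgeR, and 2 had an unadjusted p under 0.05, where 30% of all genes had. Of the 6 vitellogenin genes, 1 fell in N2 and 3 in *syp-2::AID* worms, where 1.44% and 1.93% of all genes fell. No marker of the intestine, epidermis, muscle or germline list was at 0 in any group. The part of these levels in the changes of lysozyme, saposin-like or peptide genes was not tested.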

How the data were processed

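The authors aligned paired-end reads to ce10 with TopHat2 2.0.11, after bcl2fastq 2.1.7, and counted them per gene with featureCounts of Rsubread. The deposited values are these raw counts, not normalised, for 16 libraries. The annotation and its release, like the strand setting, were not given in the sources used here. In R 4.3.3, edgeR 4.0.16 (TMM, robust quasi-likelihood, filterByExpr at 10 counts) was fitted over 4 groups, with Benjamini-Hochberg adjustment over 11776 genes and a biological coefficient of variation of 0.185. CPM use the TMM factors. log2 deviations used a prior count of 2. Exon lengths, neighbours and overlaps came from WBcel235, which matched 40257 of 42048 gene names and all 92 immune genes. No coordinates are given, since builds differ. Alternatives comprised other scaling (RLE, upper-quartile, none), DESeq2 1.42.0, voom in limma 3.58.1, other filters, 8 libraries alone, replicate blocks, each library left out, replicates 3 and 4 of treated *syp-2::AID* worms left out, and the length trend removed. The tests were checked on simulated data.

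The immune genes and the lists were chosen with earlier results of these data known. Genes named were drawn from those past the test in any comparison, the 2 highest by mean CPM in each family, in families with no call the gene of lowest p, genes whose calls change when a library is left out, and up to 4 genes past the test per list, or set representatives, and not all of these are named. *spp-20*, *spp-3*, *spp-10*, *lys-2* and *lys-8* were named for their level, place or counts.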

Additional observations from a re-analysis of the deposited data

Results flagged for a closer look

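Within groups of 4 libraries, the gap between an extreme library and its nearest neighbour was compared with the range of the group (Dixon's ratio, at its 95% critical value) for all 50 tested genes. This marked 13 of 200 groups, and chance alone marks about 1 in 20. In untreated N2 worms replicate 1 was highest for *spp-2* (15.9 CPM, next 10.1), *spp-8* (33.5, next 26.5) and *cnc-4* (37.5, next 21.5), replicate 3 was lowest for *lys-5* (2.81, next 4.37), and replicate 4 was highest for *fipr-9* (1.00, next 0.26). In treated N2 worms replicate 2 was highest for *spp-5* (345 CPM, next 291), *cnc-8* (23.8, next 15.4), *fipr-2* (11.1, next 6.54) and *fipr-21* (67.8, next 54.2). In untreated *syp-2::AID* worms replicate 4 was highest for *lys-3* (2.87 CPM, next 0.79), replicate 1 was highest for *spp-17* (614, next 555) and replicate 2 was lowest for *cnc-4* (7.17, next 18.7). In treated *syp-2::AID* worms replicate 4 was highest for *lys-7* (49.5 CPM, next 33.8). Replicates 3 and 4 of that group, being 2 together, are not marked by such a ratio in the genes where both are high.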

How the results depend on the processing

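Low counts limit *lys-3*, *spp-12*, *abf* and several *fipr* genes. The counts here are of the immune genes tested in each fit, and *spp-20*, which passed the count filter in some fits but not in the main one, is among the 12, 20 and 21 below. Of the 50 genes tested with all libraries, 7 passed the test with auxin in N2 worms, but 4 with at least 10 counts in every library, 11 with 8 libraries alone and 12 without replicates 3 and 4. With auxin in the degron strain 9 passed, 4 with 8 libraries alone, 4 without replicates 3 and 4, and 5 to 21 with 1 library left out (20 and 21 without treated replicate 1 or 2, and 5 without treated replicate 3 or untreated replicate 2 or 3). For the difference none passed, and 2 with DESeq2. Between the untreated strains 2 passed, 4 with DESeq2, 1 with limma-voom, 1 with 10 counts in every library, 4 with 8 libraries alone, 9 without replicates 3 and 4, 5 with the length trend removed, and 0 to 3 with 1 library left out (0 without untreated N2 replicate 1 or 2, and 3, with *lys-5* added, without treated *syp-2::AID* replicate 4). Between the treated strains 1 passed, 6 with DESeq2, 3 without replicates 3 and 4, 2 with the length trend removed, and 1 to 15 with 1 library left out (15 without treated *syp-2::AID* replicate 1 or 2, 2 without treated N2 replicate 2). Calls also moved among the tested genes of 250 to 600 exon bases, so such moves are not particular to the immune genes. Between the untreated strains 13 of 1063 of these were higher and 1 lower with all libraries. Without replicates 3 and 4 it was 64 and 146 of 1114. With auxin in N2 worms 38 of 1063 rose and 8 fell, and without that pair 69 and 118 of 1114. Shares of all genes in the other fits are not given here. The cause was not tested.

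Among genes past the test in at least 1 fit of a comparison, signs turned in *syp-2::AID* worms without replicates 3 and 4 for *spp-17* (log2 -0.22), *cnc-11* (-0.26), *spp-5* (-0.0534), *spp-14* (-0.24), *fipr-13* (-0.19) and *spp-3* (-0.15), and with the length trend removed for *spp-17* (-0.0386) and *spp-3* (-0.0875). Between the treated strains they turned without replicates 3 and 4 for *spp-1* (-0.0930), *spp-5* (-0.13), *cnc-7* (-0.20) and *spp-3* (-0.15), and with the trend removed for *spp-3* (-0.0735). With 1 library left out, *spp-1* with auxin in *syp-2::AID* worms ranged from -0.31 to 0.18 and *lys-4* between the treated strains from -0.24 to 0.13. With all libraries none of these genes passed the test in the comparison named.

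No pairing of samples by replicate number is stated in the study's methods. Same-numbered libraries had correlations of their deviations from -0.37 to 0.09, and 1 of 8 correlated best with its own number. These deviations are from means of 4 libraries, so weak correlations cannot exclude a pairing. With the number as a block across groups, 5 genes in place of 7 passed with auxin in N2 worms (*spp-1* and *spp-23* had adjusted p-values of 0.0691 and 0.0660), 7 in place of 9 in *syp-2::AID* worms (*ilys-4* and *cnc-4*, 0.0600 and 0.0625) and 1 in place of 2 between the untreated strains (*spp-23*, 0.0637). With a block within each strain, *spp-23* in N2 (0.130) and *ilys-4* in *syp-2::AID* worms (0.0757) did not pass.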
